A study of Mus musculus with 12 samples.

Results

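The 9 genes described here encode transcription factors that mark, or are required in, undifferentiated spermatogonia of the mouse testis. They are Zbtb16, Sall4, Taf4b, Foxo1, Foxc2, Neurog3, Sox3, Utf1 and Pou5f1, chosen by name and found by symbol among the 53715 genes of the deposited count table. RNA was sequenced from 12 libraries of spermatogonia of a C57BL6/129 background, each prepared by Smart-seq2, which copies whole transcripts of few cells, from 1000 cells of a fluorescence-activated sort. The 4 groups were Tet1KO at 3 months, WT at 3 months, Tet1KO at 11 months and WT at 11 months of age, with 3 libraries each. The labels give the genotype as Tet1KO without naming the allele, its exons or a Cre driver, they do not name the surface markers of the sort, and they do not state whether replicates are different animals. The p-values below therefore describe the spread among these libraries, part or all of which may be technical.

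Spermatogonia divide on the basement membrane of the seminiferous tubule. Stem cells and the progenitors they give rise to are called undifferentiated; retinoic acid moves progenitors on to Kit-positive differentiating spermatogonia and then to meiosis. PLZF, the product of Zbtb16, is a zinc finger repressor needed for self-renewal, and SALL4 is a zinc finger factor that binds PLZF and the NuRD deacetylase complex. TAF4B is a germ cell form of a subunit of TFIID, the complex that places RNA polymerase II at promoters. FOXO1 is a forkhead factor that AKT keeps out of the nucleus, and FOXC2 is a forkhead factor of a small stem cell subset. SOX3 and the helix-loop-helix factor NEUROG3 are markers of progenitors about to differentiate. UTF1 and POU5F1 (OCT4) are factors of pluripotent cells, and POU5F1 is made in primordial germ cells and fetal germ cells. TET1, the product of the gene that the label Tet1KO names, is an enzyme that oxidises 5-methylcytosine, which lies mainly at CG dinucleotides.

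Promoter sequences from RefSeq (build GRCm38.p6, 250 bases before to 50 after the annotated start) matched 4 of the 9 genes by symbol. They are shown because the CG dinucleotides, in capitals, are the bases that TET1 acts on; methylation itself was not measured here. Foxo1 is read from chr3:52268087-52268386, Utf1 from chr7:139943606-139943905, Neurog3 from chr10:62132840-62133139 and Pou5f1 from chr17:35505782-35506081, all on the plus strand.
Foxo1: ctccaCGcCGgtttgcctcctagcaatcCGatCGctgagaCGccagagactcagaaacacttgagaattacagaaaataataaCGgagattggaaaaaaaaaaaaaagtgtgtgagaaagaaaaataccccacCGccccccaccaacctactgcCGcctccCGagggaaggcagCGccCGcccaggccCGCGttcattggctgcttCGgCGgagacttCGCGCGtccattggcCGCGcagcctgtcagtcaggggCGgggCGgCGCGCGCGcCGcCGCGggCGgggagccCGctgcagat
Utf1: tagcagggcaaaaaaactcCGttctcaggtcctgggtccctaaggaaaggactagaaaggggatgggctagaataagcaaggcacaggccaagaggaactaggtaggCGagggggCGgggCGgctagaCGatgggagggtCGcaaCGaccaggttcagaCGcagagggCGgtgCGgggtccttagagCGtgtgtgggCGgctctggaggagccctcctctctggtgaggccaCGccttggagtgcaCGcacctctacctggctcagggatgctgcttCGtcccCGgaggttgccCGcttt
Neurog3: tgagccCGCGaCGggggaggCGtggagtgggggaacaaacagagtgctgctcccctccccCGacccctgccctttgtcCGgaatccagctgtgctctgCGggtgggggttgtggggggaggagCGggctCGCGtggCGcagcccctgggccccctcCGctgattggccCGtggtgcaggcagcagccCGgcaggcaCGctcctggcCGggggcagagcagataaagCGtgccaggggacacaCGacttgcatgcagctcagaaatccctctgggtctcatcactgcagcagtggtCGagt
Pou5f1: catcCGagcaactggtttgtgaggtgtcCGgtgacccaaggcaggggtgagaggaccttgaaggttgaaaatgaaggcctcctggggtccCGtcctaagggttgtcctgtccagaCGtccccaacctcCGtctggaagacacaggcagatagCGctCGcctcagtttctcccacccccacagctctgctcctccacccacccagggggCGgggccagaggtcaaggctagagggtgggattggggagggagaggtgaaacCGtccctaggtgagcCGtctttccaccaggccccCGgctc
The Foxo1 window held 31 CG dinucleotides, Neurog3 19, Utf1 17 and Pou5f1 11, and the median of 32851 promoters of this length was 7. A second annotated start of Pou5f1 had 6. Neurog3 and Utf1 thus had more CG than the median promoter, and their transcripts were near the detection limit in these cells. Letters bound by the members' own families were searched on both strands. None of the windows held GTAAACA (a FOXO motif, in 3.65% of all promoters), ATGCAAAT (the octamer of POU factors, 1.74%) or the core promoter element TATAAA (13.62%). ACAAAG, a SOX motif found in 18.71% of promoters, was in the Neurog3 window. CANNTG, the E-box of helix-loop-helix factors found in 72.31%, was in the Foxo1, Neurog3 and Pou5f1 windows and not in that of Utf1.

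The sorted cells carried spermatogonial transcripts at every age and in both genotypes. Levels are given as CPM, counts relative to a TMM-scaled library total of 1000000, or as RPKM, the same per kilobase of exon, where genes are compared with each other. Total counts per library were 8325159 to 18223645, and 3 counts, the upper limit that a count of 0 allows for counting error, corresponded to 0.165 to 0.360 CPM. Dazl and Ddx4, defining germ cell genes, were at 1651 to 2503 and 261 to 386 CPM over the 12 libraries, Gfra1, the GDNF receptor of stem cells, at 13.95 to 40.6 CPM and Kit, the receptor of differentiating spermatogonia, at 62.1 to 109.8 CPM. The libraries thus held transcripts of both undifferentiated and differentiating cells. They also held those of later germ cells: Sycp3, of the axis of meiotic chromosomes, averaged 1164 CPM and Prm2, a protamine of spermatids, 379 CPM (82.2 to 841). A list of 12 spermatid genes summed to 358 to 3588 CPM over the libraries. In such bulk samples fewer cells of a type and less RNA per cell cannot be told apart. Tet1 had 6, 11 and 18 counts in Tet1KO and 15, 16 and 0 in WT at 3 months, and 1, 17 and 5 in Tet1KO and 1, 16 and 5 in WT at 11 months. Counts over the whole gene did not separate the genotypes, so they do not check these labels, and the names Tet1KO and WT are used as given. At 3 months, Tet1KO replicate 2 (30010) and WT replicate 1 (29420) stood apart in the number of genes detected, which did not exceed 26995 in the other 10 libraries. The same 2 had the highest mean log2 CPM of the spermatid genes (6.61 in Tet1KO replicate 2 and 7.28 in WT replicate 1) and of the spermatocyte genes (6.77 and 6.94, against 4.86 to 5.48 in the other 10). By the sum of the spermatid genes the order differed. After WT replicate 1 of 3 months (3588 CPM) came replicate 1 of 11 months in WT (3118) and Tet1KO (2894). Tet1KO replicate 2 of 3 months had 1867 CPM.

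Taf4b, Sall4 and Foxo1 were abundant and the other 6 genes were low. Per kilobase, averaged over all 12 libraries (SD), Taf4b stood at 35.5 ± 4.66 RPKM, Sall4 at 12.3 ± 3.24 and Foxo1 at 10.7 ± 1.80. Sox3 followed at 1.57 ± 0.562, Zbtb16 at 1.47 ± 0.532, Foxc2 at 1.10 ± 0.574, Utf1 at 0.778 ± 0.531, Neurog3 at 0.395 ± 0.276 and Pou5f1 at 0.0553 ± 0.0933 RPKM. There were 2 breaks in this order wider than the spread over libraries, that between Taf4b (27.5 to 44.1 RPKM) and Sall4 (8.17 to 18.8) and that between Foxo1 (7.97 to 14.04) and Sox3 (0.838 to 2.38). The other neighbours overlapped. The abundant genes also varied least between libraries of a group. The within-group SD was 0.22 on the log2 scale for Taf4b, 0.28 for Foxo1 and 0.40 for Sall4, below the median of 0.44 over 19815 tested genes, and 0.51 for Sox3, 0.67 for Zbtb16, 0.77 for Foxc2, 1.05 for Utf1 and 1.25 for Neurog3.

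**Figure D1:**
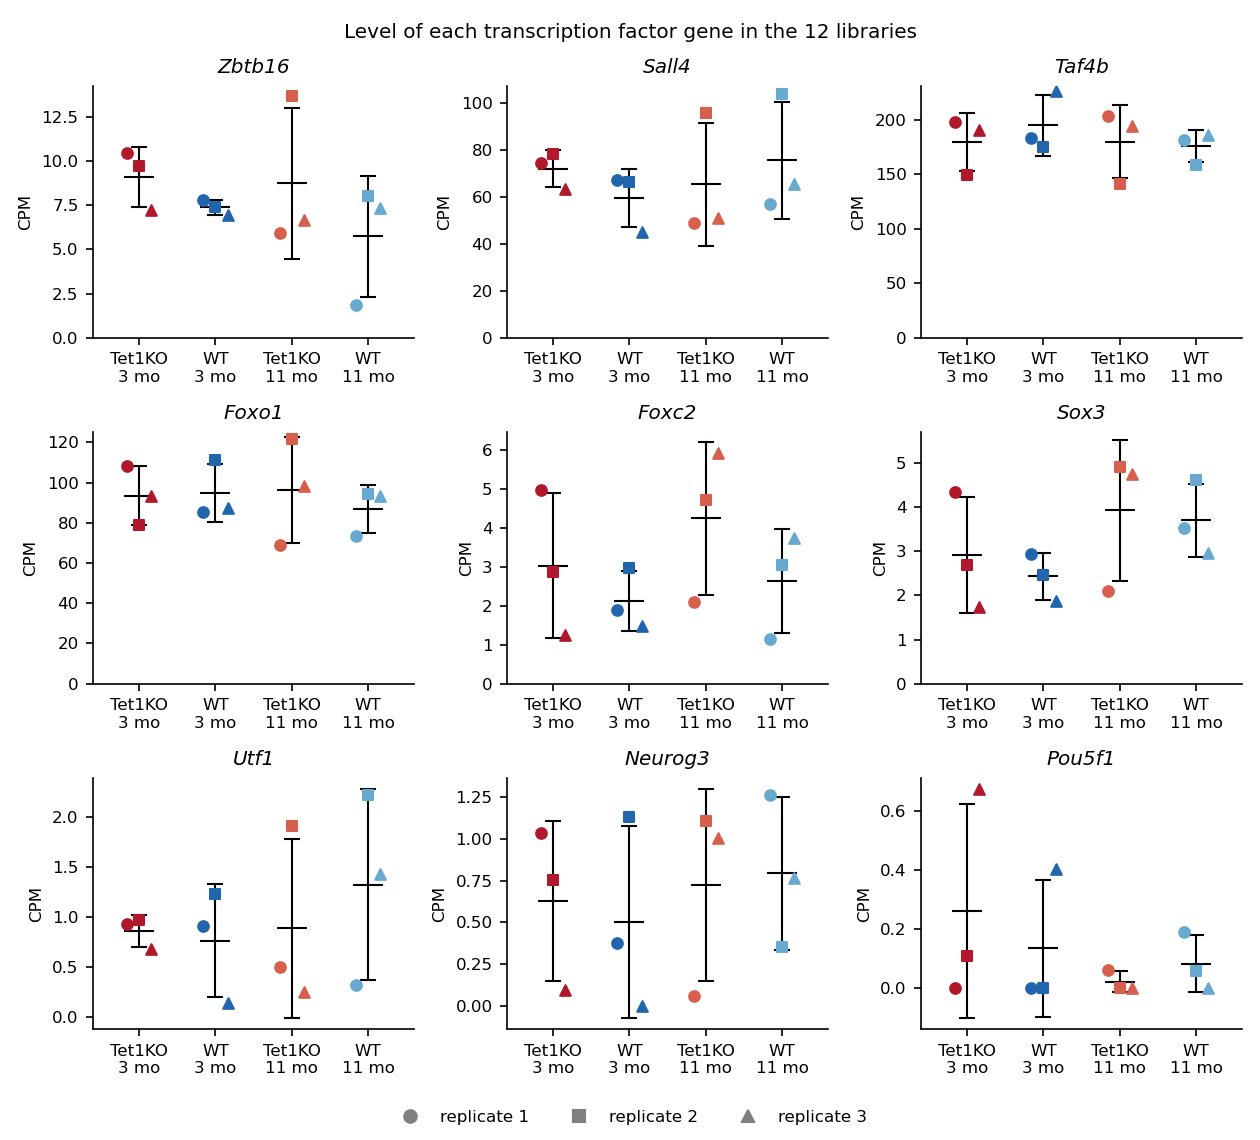
Level of each gene in CPM (vertical axis, linear; ranges differ between panels) in the 3 libraries of each group, with the group mean and SD as black bars and a marker shape for each replicate number. Tet1KO and WT points overlap in every panel at both ages, and the squares of 11 months (replicate 2 of either genotype) are the highest Sall4 and Utf1 and the lowest Taf4b of that age.

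None of the 8 testable genes differed between Tet1KO and WT past the threshold of the test. Differences were tested over all 19815 genes that had enough counts, with the quasi-likelihood F test of edgeR on the counts of all 12 libraries and Benjamini-Hochberg adjustment at 0.05; log2 fold changes are Tet1KO over WT with their standard error (SE). At 3 months 0 of 8 members passed, and the share of all genes that passed was 0% (0 of 19815). At an unadjusted p under 0.05 there were 225 genes (1.14%) and 0 members, DESeq2 called 2 genes and limma-voom 0, none a member. At 11 months 0 of 8 members and again 0% of genes passed. There 326 genes (1.65%) and 0 members had an unadjusted p under 0.05, and DESeq2 called 3 genes and limma-voom 0, none a member. Over both ages together the counts were 0 members, 0% of genes, 283 genes (1.43%) unadjusted, 2 genes by DESeq2 and 0 by limma-voom. The libraries of the genotypes overlapped for each of the 8 members at both ages, while 6.94% of all tested genes did not overlap at 3 months and 5.36% at 11 months.

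Sall4 (chromosome 2, 168748332 to 168767943, minus strand, mm10) had 74.5, 78.5 and 63.3 CPM in Tet1KO and 67.1, 66.6 and 45.2 CPM in WT at 3 months (replicates 1, 2 and 3 in each list of this report). At 11 months it had 49.0, 95.8 and 51.2 CPM in Tet1KO and 57.1, 104.1 and 65.7 CPM in WT. Replicate 2 was far above the other libraries in both genotypes of 11 months, and the ranges of the genotypes overlapped at each age. The log2 fold change was 0.27 ± 0.29 (SE) at 3 months and -0.21 ± 0.29 at 11 months, and the difference between these, -0.49 ± 0.41, did not pass the test of genotype by age (edgeR adjusted p = 0.99996). It was -0.87 without Tet1KO replicate 2 and -0.19 without WT replicate 2 of 11 months. At 11 months WT exceeded Tet1KO in all 3 same-numbered pairs, with Tet1KO minus WT at -0.22, -0.12 and -0.36 on the log2 scale; 11.1% of all tested genes were lower in all 3 pairs. Gm14261, a gene sharing exon bases with Sall4 on the other strand, had 35 counts in all, against 10360 for Sall4.

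Zbtb16 (chromosome 9, 48654297 to 48836222, minus strand), the gene of the PLZF repressor, had 10.4, 9.70 and 7.21 CPM in Tet1KO and 7.79, 7.39 and 6.98 CPM in WT at 3 months. At 11 months the values were 5.91, 13.7 and 6.68 CPM in Tet1KO and 1.83, 8.05 and 7.35 CPM in WT. WT replicate 1 of 11 months was the lowest of all 12 libraries and Tet1KO replicate 2 of that age the highest, and both genotypes overlapped at each age. The log2 fold changes of 0.30 ± 0.48 at 3 months, 0.61 ± 0.48 at 11 months and 0.46 ± 0.34 over both ages (SE) did not pass. At 11 months the value was 0.14 without Tet1KO replicate 2.

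Taf4b (chromosome 18, 14783245 to 14900359, plus strand) had the smallest spread of the 8 genes. It had 199, 149 and 191 CPM in Tet1KO and 183, 175 and 227 CPM in WT at 3 months, and 204, 141 and 194 CPM in Tet1KO and 182, 159 and 187 CPM in WT at 11 months. Replicate 2 was the lowest of its group in each of the 4 groups. Tet1KO over WT was 0.921-fold at 3 months (95% interval 0.705 to 1.203) and 1.02-fold at 11 months (0.784 to 1.34), log2 fold changes of -0.12 ± 0.18 and 0.03 ± 0.18 (SE).

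Foxo1 (chromosome 3, 52268336 to 52353221, plus strand) came next in spread. It had 108, 78.8 and 93.2 CPM in Tet1KO and 85.5, 111 and 87.3 CPM in WT at 3 months, and 69.1, 122 and 98.1 CPM in Tet1KO and 73.2, 94.2 and 93.5 CPM in WT at 11 months. The ranges overlapped widely, and replicate 1 was the lowest of both genotypes at 11 months. Tet1KO over WT was 0.986-fold (95% interval 0.717 to 1.35) at 3 months and 1.11-fold (0.805 to 1.52) at 11 months, log2 fold changes of -0.02 ± 0.21 and 0.15 ± 0.21. For Sall4 the intervals were 0.776 to 1.88 and 0.555 to 1.34. The unadjusted 95% intervals of Taf4b, Foxo1 and Sall4 thus left out a 2-fold change in either direction at both ages, which those of the other 5 genes did not.

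Foxc2 (chromosome 8, 121116171 to 121118895, plus strand), a gene of 1 exon, had 4.96, 2.86 and 1.25 CPM in Tet1KO and 1.89, 2.98 and 1.48 CPM in WT at 3 months. At 11 months it had 2.09, 4.72 and 5.93 CPM in Tet1KO and 1.14, 3.03 and 3.73 CPM in WT. The libraries of a group differed by more than 2-fold and the genotypes overlapped. The log2 fold changes were 0.51 ± 0.61 at 3 months, 0.69 ± 0.61 at 11 months and 0.60 ± 0.43 over both ages (SE), none past the test. Foxc2 lies within Gm20388 without sharing its exons. The 3-month value rested on Tet1KO replicate 1, without which it was -0.03. At 11 months Tet1KO exceeded WT in all 3 same-numbered pairs, by 0.80, 0.61 and 0.65 on the log2 scale, as 12.8% of all tested genes did. A fit of the 6 libraries of 11 months with the replicate number as a block, a choice made after seeing the data, gave 0.71 ± 0.38 for Foxc2 and -0.24 ± 0.12 for Sall4, with 0 of 8 members and 0 of 18289 genes past the edgeR threshold and 627 genes at an unadjusted p under 0.05, where the same 6 libraries without the block gave 224.

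**Figure D2:**
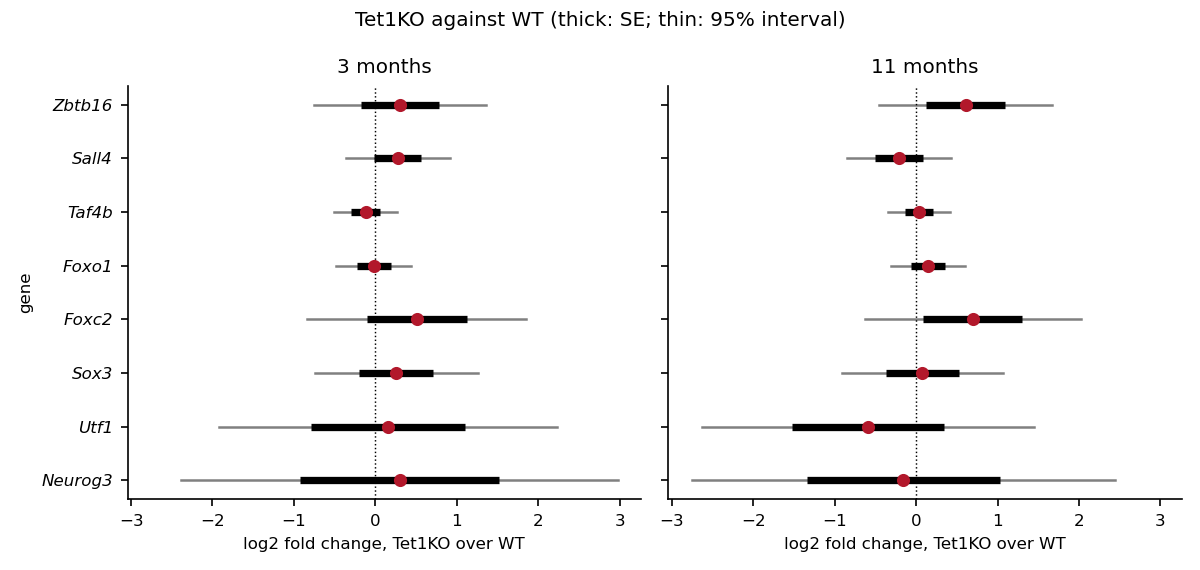
Log2 fold change of Tet1KO over WT (horizontal axis) for the 8 tested genes (vertical axis) at 3 and at 11 months; dots are edgeR estimates, thick bars the SE and thin bars the 95% interval. All intervals include 0, and they are narrowest for Taf4b and Foxo1 and widest for Utf1 and Neurog3, the tested genes with the fewest counts.

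The markers of progenitors about to differentiate were low. Sox3 (chromosome X, 60891366 to 60893430, minus strand) had 4.34, 2.70 and 1.73 CPM in Tet1KO and 2.95, 2.46 and 1.88 CPM in WT at 3 months, and 2.09, 4.92 and 4.76 CPM in Tet1KO and 3.53, 4.61 and 2.96 CPM in WT at 11 months. The log2 fold changes of 0.26 ± 0.46 and 0.08 ± 0.45 (SE) did not pass, and the genotypes overlapped at each age. Neurog3 (chromosome 10, 62133090 to 62134763, plus strand) had 10, 14 and 1 counts in Tet1KO and 5, 11 and 0 in WT at 3 months, and 1, 11 and 12 in Tet1KO and 20, 6 and 7 in WT at 11 months, 98 counts in all. Its log2 fold changes of 0.30 ± 1.23 and -0.16 ± 1.19 carry intervals from 0.192-fold to 7.88-fold at 3 months and 0.148-fold to 5.44-fold at 11 months, and differences within these intervals could not be told from none. Fam241b, which shares exon bases with Neurog3 on the other strand, had 735 counts, and without strand the reads of the shared bases cannot be told apart.

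Of the factors of pluripotent cells, Utf1 had counts in every library and Pou5f1 in 6 of 12. Utf1 (chromosome 7, 139943789 to 139945112, plus strand) had 0.930, 0.970 and 0.673 CPM in Tet1KO and 0.907, 1.23 and 0.134 CPM in WT at 3 months, and 0.493, 1.91 and 0.251 CPM in Tet1KO and 0.315, 2.22 and 1.43 CPM in WT at 11 months. Replicate 2 was the highest library in each of the 4 groups, and the genotypes overlapped. The log2 fold changes were 0.16 ± 0.95 at 3 months and -0.60 ± 0.93 at 11 months (SE), with a difference between ages of -0.75 ± 1.33, which was -1.95 without Tet1KO replicate 2 and -0.13 without WT replicate 2 of 11 months. Pou5f1 (chromosome 17, 35506018 to 35510772, plus strand) had 0, 2 and 7 counts in Tet1KO and 0, 0 and 3 in WT at 3 months, and 1, 0 and 0 in Tet1KO and 3, 1 and 0 in WT at 11 months. These 17 counts were under the minimum for the test across genes, and exact two-sided permutation tests of the CPM gave p = 0.7 for Tet1KO against WT at either age, where 3 against 3 libraries allow no p under 0.1. Gm19553, on the other strand and sharing exon bases with Pou5f1, had 10 counts. These were 0, 2 and 1 in Tet1KO and 0, 0 and 3 in WT at 3 months. The values of 11 months were 0, 0 and 0 in Tet1KO and 3, 1 and 0 in WT. In each WT library the count equalled that of Pou5f1. Without strand the reads of the shared bases cannot be told apart, so the Pou5f1 counts may in part be those of Gm19553.

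As a list, 6 of the 8 tested genes had a positive log2 fold change at 3 months, with a median of 0.26, where 46.8% of all tested genes were positive and their median was -0.02. At 11 months 5 of 8 were positive with a median of 0.06, against 53.8% and a median of 0.02 over all genes. The 3-month libraries carried library codes of 2 prefixes, AK (2 libraries of each genotype) and DY (1 of each). Within AK codes the mean log2 CPM difference of Tet1KO minus WT was 0.18 for Zbtb16, 0.36 for Sall4, -0.27 for Taf4b, -0.01 for Foxo1, 0.17 for Foxc2, -0.12 for Sox3, 0.79 for Utf1 and 0.72 for Neurog3. Within the DY pair it was 0.49 for Zbtb16, 0.16 for Sall4, 0.18 for Taf4b, -0.04 for Foxo1, 0.71 for Foxc2, 0.78 for Sox3, -0.35 for Utf1 and -0.11 for Neurog3. Zbtb16, Sall4 and Foxc2 had positive differences under both prefixes, and Taf4b, Sox3, Utf1 and Neurog3 had differences of opposite sign. Those of Foxo1 were the smallest in size under each prefix and are not read as a direction. Of a list of 20 Sertoli cell genes, the somatic cells of the tubule, 17 were tested and 17 had a log2 fold change below 0 at 3 months, with a median of -1.17, 4 of them at an unadjusted p under 0.05 and none past the test. The mean log2 CPM of the list was 1.69 to 2.67 in Tet1KO and 2.63 to 4.06 in WT at that age. Its sum was 402 to 453 CPM in Tet1KO and 445 to 918 CPM in WT, of which Ctsl, a protease gene, averaged 359 CPM over the 12 libraries. At 11 months 15 of 17 were below 0 with a median of -0.92, and the mean log2 CPM was 1.36 to 2.03 in Tet1KO and 1.04 to 3.31 in WT. Amh, Gata4, Cldn11, Fshr and Nr5a1 were at 0 in at least 1 of the 12 libraries. Of the spermatid genes 11 of 12 were below 0 at 3 months (median -0.47) and 12 of 12 above 0 at 11 months (0.22), and of the leukocyte genes 16 of 17 were below 0 at 3 months (-0.38) and 17 of 17 above 0 at 11 months (0.70). Of the peritubular genes 6 of 7 were above 0 at 3 months (0.34) and 6 of 7 below 0 at 11 months (-1.96), 5 of them at an unadjusted p under 0.05. None of these genes passed the test, and the part of these transcripts in the members' values was not tested.

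Age made no difference that passed the test either. All libraries of 11 months had AK codes, while each group of 3 months held 1 DY library. Age and library code prefix were thus partly confounded in both genotypes. Between 11 and 3 months, 0 of 8 members and 0% of genes passed in edgeR in either genotype. At an unadjusted p under 0.05 there were 0 members and 462 genes (2.33%) in Tet1KO, where DESeq2 called 7 genes, and 0 members and 1124 genes (5.67%) in WT, where DESeq2 called 0, with 0 calls by limma-voom in both. Of the 8 members, Sox3 in WT was the gene whose ages did not overlap, at 3.53, 4.61 and 2.96 CPM at 11 months and 2.95, 2.46 and 1.88 CPM at 3 months, where 11.5% of all genes did not overlap. The gap between the nearest libraries was 2.96 against 2.95 CPM. The exact two-sided permutation p was 0.1, the smallest possible, the log2 fold change 0.60 ± 0.46 (SE) and the edgeR adjusted p 0.81. In Tet1KO 0 of 8 members had ages that did not overlap, against 6.2% of all genes, and Sox3 had a log2 fold change of 0.42 ± 0.45. The test of genotype by age called 0 of 8 members and 0% of genes, with 0 members and 311 genes (1.57%) at an unadjusted p under 0.05 and 0 genes by DESeq2 or limma-voom.

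Libraries of 1 group differed from each other, and in these differences Taf4b ran against the other genes. Over the 12 libraries, the log2 CPM of Taf4b had a negative Pearson correlation with each of the other 7 tested members (r from -0.84 to -0.30), and 20 of the 21 pairs among those 7 were positive (r up to 0.90). The closest pair was Sall4 and Utf1, with r = 0.90 (permutation p = 0.00012, 0.00336 adjusted over 28 pairs) and Spearman's rho = 0.87 (permutation p = 0.00057, adjusted 0.00798). Leaving out the 2 libraries farthest from the median of Sall4 gave r = 0.83, and the 10 libraries with AK codes gave r = 0.92. Sall4 and Taf4b had r = -0.84 (permutation p = 0.00085, adjusted 0.0119) and rho = -0.78 (permutation p = 0.00495, adjusted 0.0462), with -0.79 without those 2 libraries and -0.90 within AK codes. These were the 2 of 28 pairs whose r and rho both passed 0.05 after adjustment. The share of such pairs among all tested genes was not computed, so the relations are not shown to be particular to the members. A gene outside the members, Isyna1, had r = 0.96 with Sall4. Utf1 had 1 to 38 counts per library. With the mean of each group removed, r was 0.90 for Sall4 and Utf1 and -0.85 for Sall4 and Taf4b. The permutations, two-sided, treat the 12 libraries as independent, which those of 11 months with the same number may not be, and all levels share the scaling of their library.

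**Figure D3:**
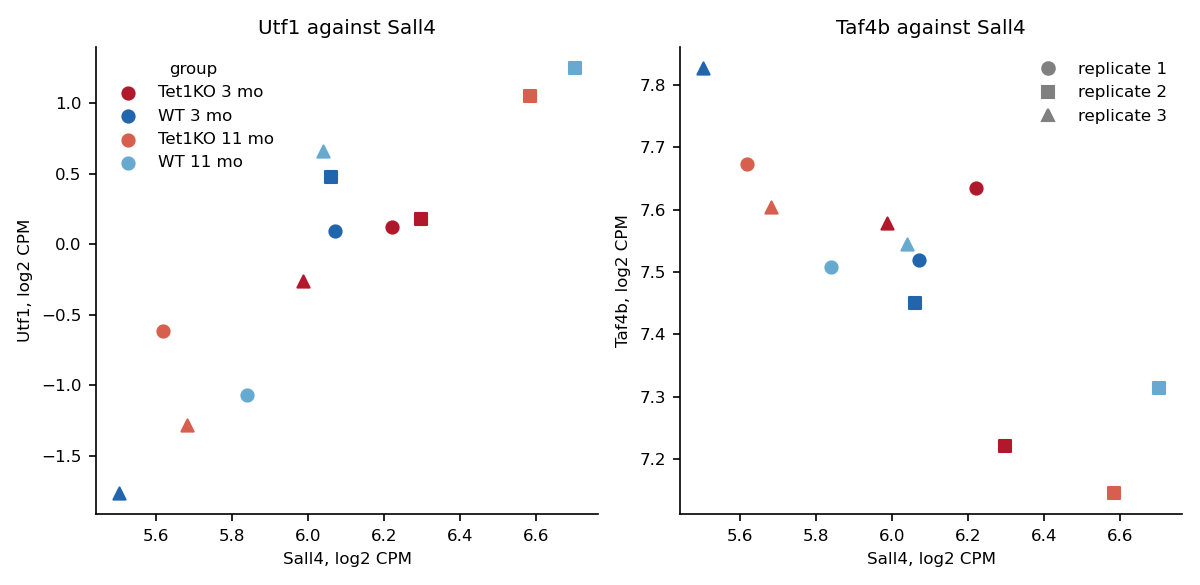
Log2 CPM of Utf1 (left) and of Taf4b (right) against log2 CPM of Sall4, 1 point per library, coloured by group and shaped by replicate number. Utf1 runs up with Sall4 (r = 0.90) and Taf4b runs down (r = -0.84), and both squares of 11 months lie at the high end of Sall4 next to each other.

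The same split appeared against other genes of the spermatogonial lineage, and not only against those. The mean log2 CPM of 10 genes of differentiating spermatogonia and meiotic entry (Stra8, Meioc, Smc1b, Ythdc2, Kit, Prdm9, Dmrtb1, Ccnd2, Dnmt3b and Rec8) had r = 0.89 with Taf4b (permutation p = 0.00011, 0.00264 adjusted over 24 relations of 8 genes with 3 lists) and rho = 0.78 (permutation p = 0.00392, adjusted 0.0307). Leaving out the 2 libraries farthest from the list's median gave r = 0.70, and AK codes alone gave 0.90. The other 7 genes had r from -0.67 to -0.28 with that list. With 13 progenitor genes, among them Sohlh1, Sohlh2, Dmrt1, Nanos3 and Lin28a, Sall4 had r = 0.79 (permutation p = 0.00244, adjusted 0.027) and the remaining 6 of those 7 had r from 0.59 to 0.77, while Taf4b had -0.72. With 17 corepressor genes, outside these 3 lists and without a test, the split was alike. There r was 0.86 for Foxc2, 0.73 for Sox3, 0.69 for Foxo1, 0.65 for Sall4 and 0.62 for Utf1. It was 0.57 for Zbtb16, 0.47 for Neurog3 and -0.50 for Taf4b. The 2 libraries with the lowest mean of the differentiating list, Tet1KO replicate 2 of 3 months (6.39 log2 CPM) and of 11 months (6.37), were those with the lowest Taf4b of Tet1KO at each age, 149 and 141 CPM. Against the lists of 6 other kinds of cell (Sertoli, peritubular, endothelial, leukocyte, spermatocyte and spermatid genes), 0 of 48 relations passed after adjustment. Those with the endothelial list, of which 8 of 9 genes were tested and whose sum was 17.04 to 39.4 CPM over the 12 libraries, ran from r = -0.50 for Taf4b to r = 0.61 for Sox3, with 0.57 for Sall4. For Sox3 the permutation p was 0.0378 (0.953 adjusted over 48 relations), rho was 0.59 (permutation p = 0.0482, adjusted 0.611), and leaving out the 2 libraries farthest from the list's median gave r = 0.39. With the spermatid list r was -0.46 for Taf4b, and with the leukocyte list -0.42 for Sall4. The leukocyte list was farthest from its median in Tet1KO replicate 1 of 3 months and WT replicate 2 of 11 months. Without these 2 libraries its r was 0.41 for Sall4, 0.90 for Sox3 (from -0.10), 0.69 for Neurog3 and 0.60 for Foxc2. It was 0.50 for Foxo1, 0.33 for Utf1, 0.06 for Zbtb16 and -0.43 for Taf4b, and none of these was tested. Removing group means gave Taf4b r = -0.60 with the Sertoli, -0.58 with the spermatid and -0.57 with the peritubular list. It was -0.53 with the spermatocyte, -0.46 with the endothelial and 0.02 with the leukocyte list. For Sall4 these values were 0.57, 0.32, 0.43, 0.26, 0.58 and -0.34 in the same order, and they carry no test. The part of these 6 kinds of cell in the members' values was not tested.

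**Figure D4:**
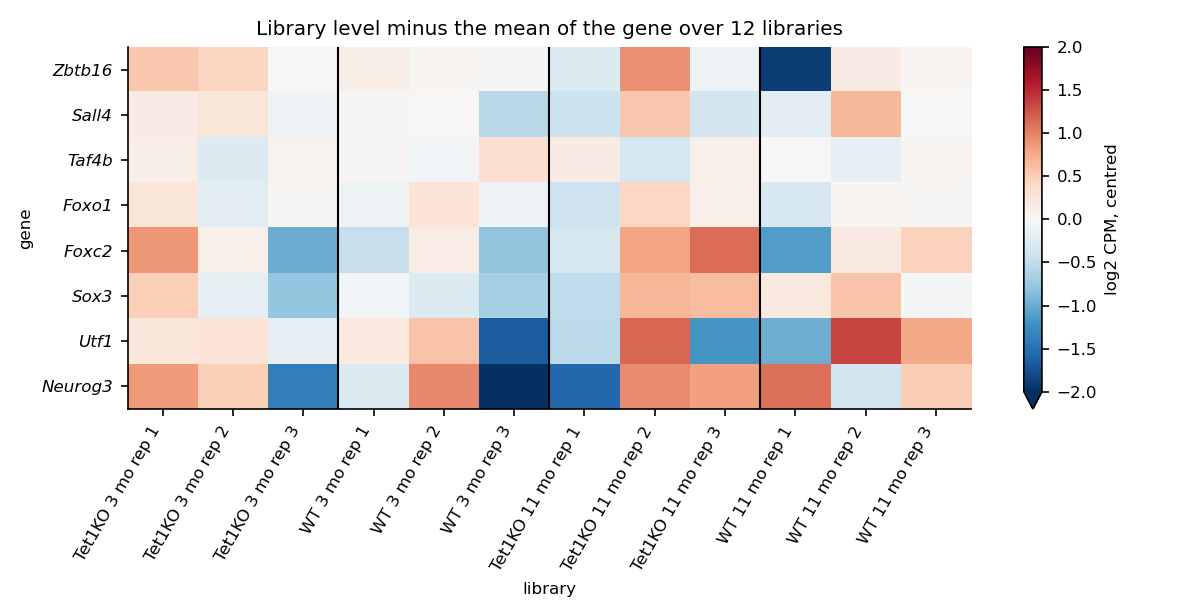
Log2 CPM of the 8 tested genes (rows) in each library (columns), minus the mean of the gene over 12 libraries; red is higher, blue lower, and the colour ends at -2 and 2. Columns are uniform in colour in several libraries, such as Tet1KO replicate 2 of 11 months (red but for Taf4b) and WT replicate 3 of 3 months (blue or near white but for Taf4b), and no colour separates Tet1KO from WT.

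Genes whose log2 CPM was most like a member's over the 12 libraries were taken from the tested genes with a mean of at least 10 CPM (9560, or 9561 for a member under that level), as a description with no test. They were Isyna1 (r = 0.96), Tubb5 (0.95) and Ahsa1 (0.94) for Sall4, and Esyt2 (0.97), Trappc8 (0.97) and Ncapg2 (0.96) for Taf4b. For Foxo1 they were Slc26a2 (0.94), Sema4d (0.91) and Poldip3 (0.86), and for Zbtb16 Incenp, Pask and Serinc5 (0.88 each). For Foxc2 they were Esrp1 (0.89), Rnf157 (0.89) and Rcan1 (0.88), and for Sox3 Ndrg1 (0.91), Map4k4 (0.87) and Rap2a (0.85). Utf1 and Neurog3, with a mean under 1 CPM, were not matched in this way, and the minimum of 10 CPM left out the low members as candidates.

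Close relatives of the members were expressed beside them. Of 16 paralogues, 10 had enough counts to test. The most abundant per kilobase were Zbtb32 at 12.2 RPKM, Taf4 at 11.7 and Foxo3 at 10.3. Zbtb32 was thus above Zbtb16 (1.47 RPKM), Taf4 below Taf4b (35.5) and Foxo3 close to Foxo1 (10.7). Pou2f1 (1.82), Pou5f2 (1.11), Sall1 (0.662), Pou3f1 (0.564), Foxo6 (0.423), Sall3 (0.161) and Foxc1 (0.157 RPKM) were lower, and Foxo4, Sall2, Sox2, Sox1, Neurog1 and Neurog2 were under the minimum for the test. Foxo3 had 85.6 ± 4.002 CPM in Tet1KO and 65.8 ± 1.58 CPM in WT at 3 months (SD, n = 3), a log2 fold change of 0.38 ± 0.14 (SE) with an edgeR adjusted p of 0.999996, and 78.6 ± 2.46 CPM in Tet1KO and 81.1 ± 15.5 CPM in WT at 11 months. None of the 10 passed in any of the 6 comparisons.

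Pou5f1 and Utf1 were low beside several other genes of the pluripotency network. Dppa5a stood at 26.8 RPKM, Dppa4 at 13.3, Lin28b, a let-7 inhibitor, at 11.1, Klf4 at 10.9, Klf2 at 10.1 and Zfp42 at 8.05, each above Utf1 at 0.778. Tfcp2l1 (2.12), Dppa3 (1.65), Klf5 (1.32), Nanog (0.903), Prdm1 (0.887), Tdgf1 (0.370), Dppa2 (0.291), Tfap2c (0.274) and Esrrb (0.119 RPKM) were lower, and Sox2, Prdm14 and Fgf4 were under the minimum for the test. None of the 15 tested genes passed in any comparison, with a median log2 fold change of Tet1KO over WT of -0.15 at 3 months and -0.003 at 11 months.

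The wider pathways of the members gave no call either. Among genes of stem cells and GDNF signalling, 0 of 12 tested genes passed in any comparison. Of these 12, 9 were positive at 3 months (median 0.32) and 8 at 11 months (median 0.23). At an unadjusted edgeR p under 0.05 there were 0 of them at either age. Over both ages together there were 2, where 1.43% of all tested genes had such a p. Gfra1 in that list had 34.3 ± 8.84 CPM in Tet1KO and 21.8 ± 7.17 CPM in WT at 3 months, and 32.1 ± 11.8 CPM in Tet1KO and 22.3 ± 6.68 CPM in WT at 11 months (SD, n = 3), with log2 fold changes of 0.65 ± 0.36 and 0.52 ± 0.36 (SE) at 3 and 11 months. In the same order of ages, Etv5, the most abundant of the list in CPM, had log2 fold changes of 0.39 ± 0.36 and 0.26 ± 0.36, and Nanos2 of 0.31 ± 0.93 and -1.31 ± 0.95, none past the test.

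Of 13 tested progenitor genes 0 passed, with medians of 0.09 at 3 months and -0.01 at 11 months. Nanos3 had log2 fold changes at 3 and 11 months of -0.07 ± 0.43 and -0.17 ± 0.42, Sohlh1 of 0.14 ± 0.35 and -0.22 ± 0.35, and the retinoic acid receptor gene Rarg of 0.11 ± 0.54 and 0.42 ± 0.52. The 10 differentiating genes had medians of -0.04 and 0.04 with 0 calls; Kit had log2 fold changes of 0.20 ± 0.23 and 0.01 ± 0.23. No gene of these 3 stages, stem cell, progenitor or differentiating, was called.

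TAF4B works within TFIID, and 19 of 20 genes of that complex and its partners were testable. Taf9 at 442 RPKM and Taf7l, a germ cell subunit, at 320 RPKM were the most abundant, Tbp stood at 18.1 RPKM, and Tbpl2, the TBP form of oocytes, had 0 counts in all 12 libraries. Tbp, the TATA-binding subunit, had log2 fold changes of 0.09 ± 0.13 at 3 months and -0.20 ± 0.13 at 11 months (SE), and Taf4 of -0.15 ± 0.15 and 0.06 ± 0.15. The median log2 fold change of the list was 0.04 at 3 months and -0.10 at 11 months. Of the genes of PI3K-AKT signalling, which controls FOXO1, 15 of 15 were tested with medians of -0.05 and 0.05 at those ages, the most abundant being Ywhaz, a 14-3-3 gene, at 275 CPM. Of 17 corepressor genes, which include the NuRD partners of SALL4, 17 were tested with medians of 0.08 and 0.02 at those ages, led by Rbbp7 at 458 and Hdac2 at 215 CPM. In these 3 lists 0 genes passed in any of the 6 comparisons. Taf9 shares exon bases with Ak6, Tbp with Pdcd2 and Rbbp7 with Txlng. Fragments of shared bases were kept for each gene, so these levels may hold reads of both.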

How the data were processed

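Whole-number counts per gene and library were deposited by the authors; per the file headers, featureCounts 1.6.2 made them on GENCODE vM17, with mapping quality of at least 30, without strand, and with fragments that overlapped several genes or mapped several times kept for each. HISAT2, SAMtools and mm10 are named in the submitters' processing notes. Symbols came from GENCODE vM21 for 53620 of 53715 genes. The counts were fitted with edgeR 4.0.16 in R 4.3.3 (filterByExpr, TMM, all 12 libraries, 1 mean per group, robust quasi-likelihood F test, two-sided), which had been tested on simulated data. Log2 CPM used a prior count of 2, RPKM the exon length of the table. DESeq2 1.42.0 and limma-voom 3.58.1 were alternatives, and 100000 permutations served each correlation; the relations for which p-values are printed were picked after their values were seen. The pluripotency and paralogue lists are named in full. From the other gene lists, Gfra1, Kit, Nanos2, Nanos3, Etv5, Sohlh1, Rarg, Taf4 and Tbp and the most abundant members are named. The members and lists were chosen with earlier results of these data known. The check of pairing used the correlation of same-numbered libraries' deviations from their group means over all tested genes. At 11 months it was 0.17 to 0.37 in the 3 Tet1KO and WT pairs, each over 0.1, so those numbers were taken to pair libraries. Between 11 and 3 months it was 0.084, 0.47 and 0.098 in Tet1KO and 0.17, 0.057 and 0.13 in WT (replicates 1, 2 and 3). Some same-numbered libraries of different ages thus also passed 0.1. The check therefore cannot establish a pairing, which remains an assumption, and the labels do not say what a number stands for. Replicates of a group were not the same library deposited again, since their counts differed by more than counting noise.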

Additional observations from a re-analysis of the deposited data

How the results depend on the processing

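Under every alternative, 0 members were called in each of the 6 comparisons. Counts of genes stayed at 0 but for DESeq2, which called 2 (Tet1KO against WT at 3 months), 3 (at 11 months), 2 (over both ages) and 7 (11 against 3 months in Tet1KO); the cause was not tested. The alternatives were other scaling, other count filters, DESeq2, limma-voom with quality weights, only the compared groups, the replicate number as a block, the library code prefix as a term, AK codes only, and libraries left out. The fit of only the compared groups gives no other fit for both ages together or for genotype by age, which use all 4 groups.

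Signs of log2 fold changes near 0 moved, none of them called. At 3 months Foxo1 was 0.031 with library totals only, 0.0043 with the replicate block, 0.020 with AK codes only and 0.018 without WT replicate 1 and Tet1KO replicate 2 together; in that last fit Neurog3 was -0.062, and with AK codes only Sox3 was -0.10. With limma-voom Taf4b was 0.013, Neurog3 -0.45 and Utf1 -0.024 at 3 months, and Taf4b -0.025 and Sox3 -0.069 at 11 months.

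Replicate numbers were not taken to pair the libraries of 3 months (correlation of deviations -0.59 to 0.30 over the 3 pairs), which is also an assumption. The replicate block, in all 12 libraries or, added after seeing the data, in the 6 of 11 months, changed no call; in the second fit Sox3 was -0.0016 at 11 months, and 627 genes had an unadjusted p under 0.05, where the same 6 libraries without the block gave 224.

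Leaving out each library in turn gave, at 3 months, -0.031 to 0.87 for Foxc2, -0.13 to 0.12 for Foxo1, -0.23 to 1.55 for Neurog3, -0.13 to 0.52 for Sox3, -0.19 to 0.035 for Taf4b and -0.29 to 0.66 for Utf1. At 11 months it gave -0.058 to 0.34 for Foxo1, -0.60 to 0.40 for Neurog3, -0.59 to 0.089 for Sall4, -0.12 to 0.38 for Sox3, -0.067 to 0.18 for Taf4b and -1.79 to 0.033 for Utf1. Zbtb16 was 0.20 to 0.44 at 3 months and 0.14 to 0.94 at 11 months, Sall4 0.14 to 0.37 at 3 months (lowest without WT replicate 3) and Foxc2 0.31 to 1.02 at 11 months (lowest without WT replicate 1), though with limma-voom Foxc2 was 0.016 at 3 months. The interaction of genotype and age ran from -0.87 to -0.19 for Sall4 and from -1.95 to -0.13 for Utf1, in both lowest without Tet1KO replicate 2 and highest without WT replicate 2 of 11 months. Neurog3, Utf1 and Pou5f1 had 98, 145 and 17 counts in all, and Neurog3 and Utf1 varied within groups by an SD of 1.25 and 1.05 on the log2 scale. Reads carry no molecular identifiers, so floors cover counting error only.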
